A study of Mus musculus with 33 samples.

Results

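Interferon-stimulated genes were followed in CD8 T cells sorted from mouse skin with contact allergy. The members are a list of 44 gene symbols, of which 42 had a row in both count tables, out of 19447 symbols in either table. They were 7 guanylate-binding proteins (GBPs), 5 immunity-related GTPases (IRGs), 4 transcription factors, 20 antiviral and type I interferon genes, 2 Ly6 surface protein genes, 3 antigen processing genes and Socs2. Tgtp1 and Tgtp2, the other listed genes, were not analysed here. A filter on low counts left 38 members for testing in the Nur77GFP experiment described below, 41 in the second, and 37 in both. The members left out were Oas1a, Oas2, Oasl1 and Usp18 in the first experiment, none above 3.28 CPM (counts scaled to a common library size) in any library, and Ifi44 in the second, at most 2.14 CPM.

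Interferons make cells transcribe a shared set of defence genes. Type I interferons bind a receptor of Ifnar1 and Ifnar2 and signal through the kinases Jak1 and Tyk2 to a transcription factor complex that holds STAT2 and IRF9 and binds the interferon-stimulated response element. Interferon gamma, encoded by Ifng and released by activated T cells, binds a receptor of Ifngr1 and Ifngr2 and signals through Jak1 and Jak2 to genes that carry the gamma-activated site. GBPs and IRGs are GTPases that gather on vacuoles holding intracellular microbes and are known above all as targets of interferon gamma, while the IFIT, OAS, Mx and Rsad2 genes are known above all as targets of type I interferon. Many of these genes answer to both, so the classes are names for gene families and not readouts of 1 ligand.

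The first experiment held 17 libraries of CD8+CD69+CD103+ resident memory T cells from Nur77GFP mice allergic to the hapten dinitrofluorobenzene (DNFB). Their cells turn on GFP when the T cell receptor has lately been engaged. Cells were taken just before DNFB retest (day 0), 24 hours after it (day 1) and 144 hours after it (day 6), with topical TA 0.01%, a glucocorticosteroid, or with acetone, the vehicle. Day 1 cells were sorted as GFP-positive and GFP-negative, and cells of the other days were GFP-negative. The second experiment held 16 libraries from wild-type C57BL/6 mice sensitized to and challenged with DNFB, with 2 in each set: CD69+CD103+ cells at day 11 and at day 42, each with TA or acetone, and, at day 2, 4 untreated subsets that differ in CD69 and CD103. The series set out to learn how the steroid acts on the response and on the resident memory cells.

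The count tables carry codes, and the labels fix the meaning of only some. Code 1 is day 0 acetone (3 libraries). Codes 3 and 4 are the TA and acetone arms of day 1, called arm 3 and arm 4 here, and which is TA was not told apart. Codes 2, 5 and 6 are day 0 TA, day 6 acetone and day 6 TA in unknown order. In the second experiment code 03 is the CD69+CD103+ subset of day 2, while codes 02, 04 and 05 are the other subsets in unknown order. The 4 later sets, coded 2, 3, 4 and 5, are day 11 and day 42 with TA or acetone in unknown order. No treatment effect can therefore be given a direction below. The labels do not say that libraries of a set come from separate animals, so p-values measure the spread between these libraries.

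Library totals ran from 2442825 to 8515297 counts in the first experiment and from 2937814 to 13629838 in the second. All 7 CD8 T cell markers were detected in every set, with summed levels of 2444 to 6563 CPM. Keratinocyte, mononuclear phagocyte, neutrophil and fibroblast markers were detected too, and their levels are given beside many of the results below. In sorted bulk RNA, fewer cells that transcribe a gene and less RNA of it per cell cannot be told apart. Levels are CPM scaled by trimmed mean of M values (TMM). Unless another test is named, a member was called changed at an adjusted p under 0.05 in the quasi-likelihood test of edgeR, after Benjamini-Hochberg adjustment over all genes tested. Log2 fold changes are given with their standard errors (SE).

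The promoters of the members were searched on both strands for the elements through which interferons are known to act. RefSeq promoters (GRCm38.p6, from 250 bases before to 50 after the start) were found for 29 of the 42 members, 35 promoters in all since some genes have several. The letters GAAANNGAA, the core of the interferon-stimulated response element, occurred in 16 of the 35 (45.7%), against 8.56% of all 32851 promoters in the table. The letters TTCNNNGAA, the gamma-activated site, occurred in 11 (31.4%), against 8.3% of all promoters, and both occurred in 6 (17.1%), against 1.07%. Neither occurred in 14 (40.0%), and 8 members, Ifi47, Irf7, Irf9, Oasl1, Oasl2, Psmb9, Tap1 and Xaf1, had neither in any of their promoters. By class, the response element core was in 4 of 5 GBP, 3 of 4 IRG, 8 of 17 antiviral, 1 of 6 transcription factor and 0 of 3 antigen processing promoters. The gamma-activated site was in 2, 2, 5, 1 and 1 of them in the same order. A match describes letters in this window and is not a shown binding site. The 250 bases before the start follow for 6 genes on which the results below turn, 5′ to 3′ on the gene's strand, with matches in capitals. They lie at chr3:142620413-142620662 (Gbp2, plus strand), chr11:58199306-58199555 (Igtp, plus), chr19:34640639-34640888 (Ifit1, plus), chr4:156200819-156201068 (Isg15, minus), chr5:114896684-114896933 (Oasl2, plus) and chr17:34197945-34198194 (Psmb8, plus).
Gbp2: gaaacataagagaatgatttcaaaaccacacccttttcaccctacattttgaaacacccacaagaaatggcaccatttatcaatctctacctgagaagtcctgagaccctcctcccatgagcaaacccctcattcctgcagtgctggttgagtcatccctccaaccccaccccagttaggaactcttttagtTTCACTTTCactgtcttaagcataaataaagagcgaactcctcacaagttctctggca
Igtp: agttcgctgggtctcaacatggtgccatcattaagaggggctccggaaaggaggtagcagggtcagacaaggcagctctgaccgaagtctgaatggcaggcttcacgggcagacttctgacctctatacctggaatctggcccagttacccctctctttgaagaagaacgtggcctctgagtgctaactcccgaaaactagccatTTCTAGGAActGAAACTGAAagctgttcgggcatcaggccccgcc
Ifit1: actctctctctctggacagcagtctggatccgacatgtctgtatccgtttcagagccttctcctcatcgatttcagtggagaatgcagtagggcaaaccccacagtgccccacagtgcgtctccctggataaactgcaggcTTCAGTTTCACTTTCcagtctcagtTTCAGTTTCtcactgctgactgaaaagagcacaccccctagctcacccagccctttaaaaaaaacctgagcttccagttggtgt
Isg15: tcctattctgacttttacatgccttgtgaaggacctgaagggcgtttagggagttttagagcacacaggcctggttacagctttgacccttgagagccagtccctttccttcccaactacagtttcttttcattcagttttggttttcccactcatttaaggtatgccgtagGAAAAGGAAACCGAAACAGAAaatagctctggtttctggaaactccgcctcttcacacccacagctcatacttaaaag
Oasl2: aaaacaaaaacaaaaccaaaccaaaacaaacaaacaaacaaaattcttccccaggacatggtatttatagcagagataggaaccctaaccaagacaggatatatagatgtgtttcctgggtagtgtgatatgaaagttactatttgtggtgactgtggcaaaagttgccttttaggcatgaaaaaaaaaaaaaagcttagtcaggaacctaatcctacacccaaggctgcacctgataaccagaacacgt
Psmb8: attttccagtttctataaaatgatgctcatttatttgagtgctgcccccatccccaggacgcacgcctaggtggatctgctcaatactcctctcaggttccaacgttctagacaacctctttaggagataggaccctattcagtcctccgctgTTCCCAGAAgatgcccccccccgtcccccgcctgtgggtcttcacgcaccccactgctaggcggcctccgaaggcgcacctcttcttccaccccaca

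Gbp2 carried 1 response element core, with its first base 58 bases before the start. Igtp held a gamma-activated site 45 bases before the start and a response element core at 34. Ifit1 held 3 cores, first bases at 109, 103 and 84, of which the first pair overlap, and Isg15 held 3 overlapping cores at 78, 72 and 66. Psmb8, an immunoproteasome subunit, held a gamma-activated site at 97. Oasl2 held neither motif in this window.

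Across the sets of the first experiment, 24 of the 42 members had their highest mean level in GFP-negative cells of arm 3 at day 1. The next sets by this count were code 6 with 5 members and arm 3 GFP-positive with 4. Gbp2, a GBP gene at chr3:142620602-142638008 (GENCODE vM21 on GRCm38, plus strand), shows the shape. It had 28.1 and 33.4 CPM in arm 4 GFP-positive, 23.1 and 17.1 in arm 4 GFP-negative, 376 and 617 in arm 3 GFP-positive and 564 and 474 in arm 3 GFP-negative libraries. It had 61.3 and 64.7 CPM in code 6, 38.6 and 59 in code 5, 10.2 and 15.7 in code 2, and 38.2, 35.9 and 61.1 in day 0 acetone libraries. The 4 arm 3 libraries stood above all other libraries of the experiment. In the second experiment, 18 members had their highest mean in day 2 code 05, 10 in code 04, 4 in CD69+CD103+ cells and 2 in code 02, and the rest in a later set. The same count over all genes was not made for either experiment. These counts therefore do not show that the peaks are particular to the members.

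**Figure D1:**
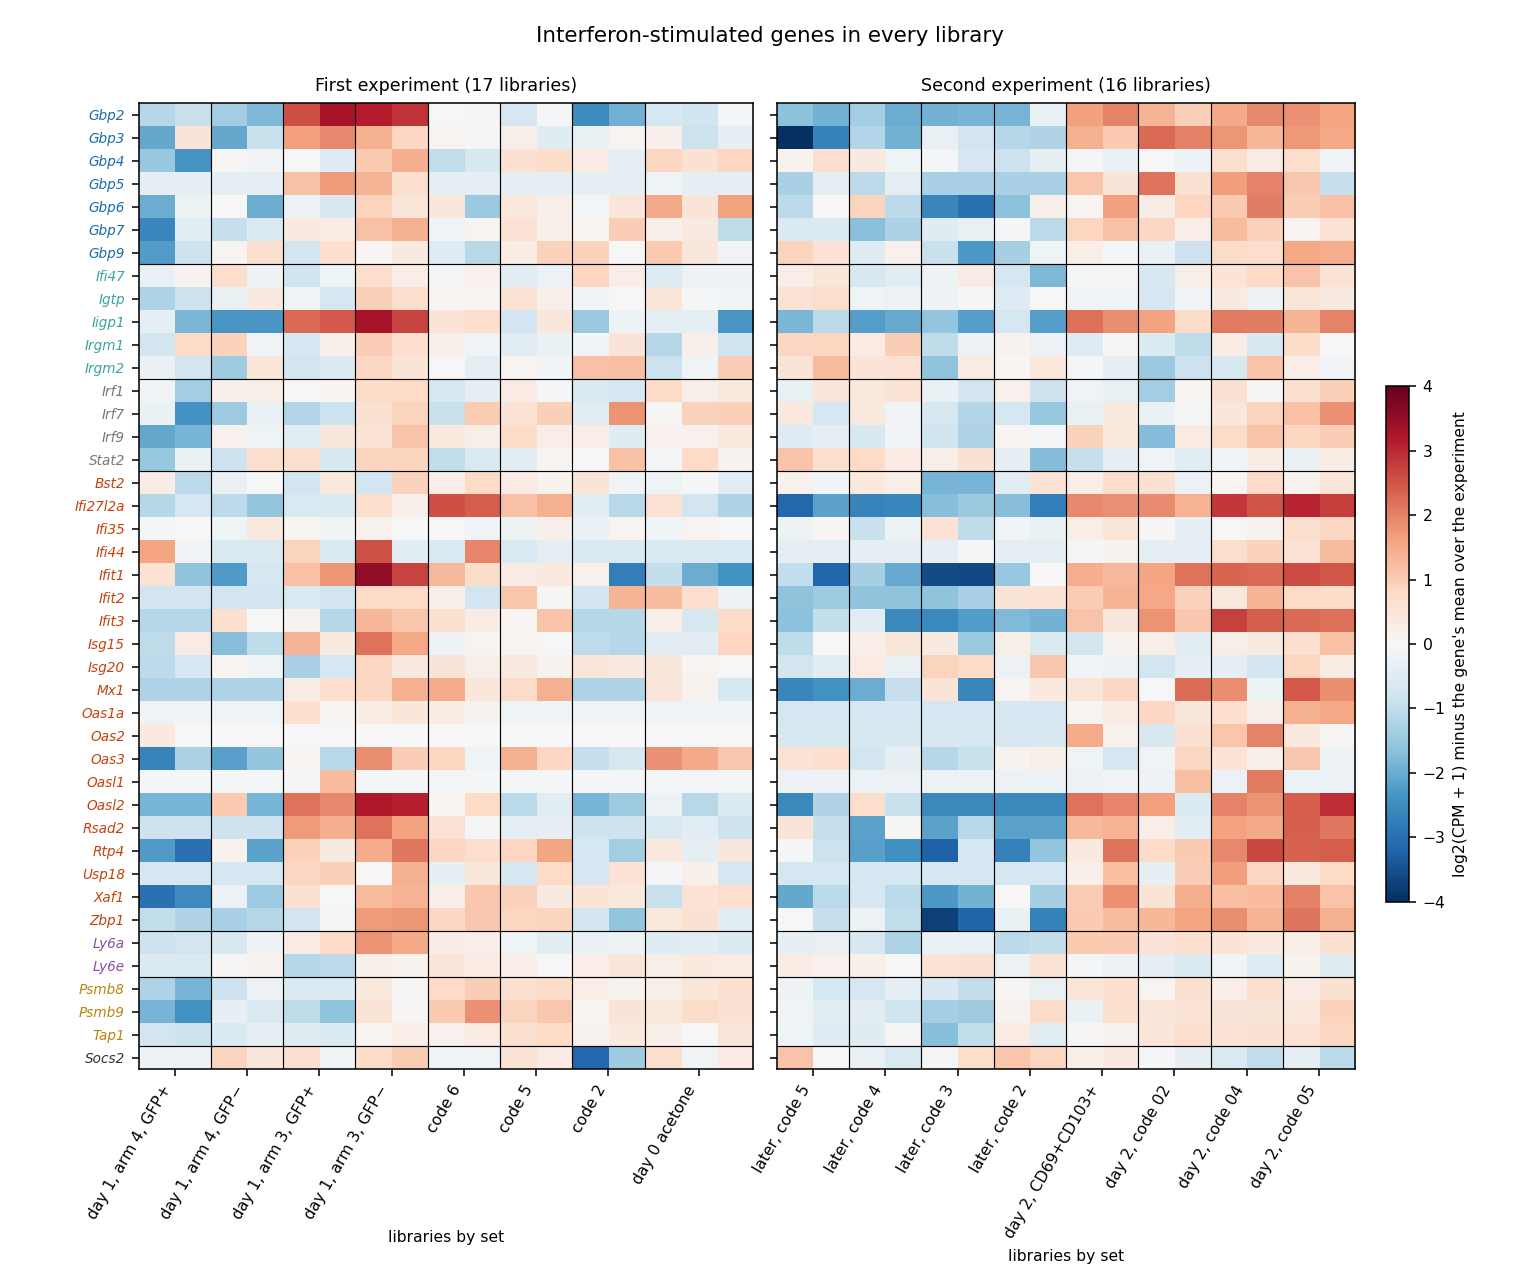
Each row is a member and each column a library, grouped by set; colour is log2(CPM + 1) minus the gene's mean over the experiment, and gene names are coloured by class. Gbp2, Iigp1, Ifit1 and Oasl2 are high in day 1 arm 3 (left panel) and in the day 2 subsets (right panel), while Igtp, Irgm1 and Ly6e vary less.

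**Figure D2:**
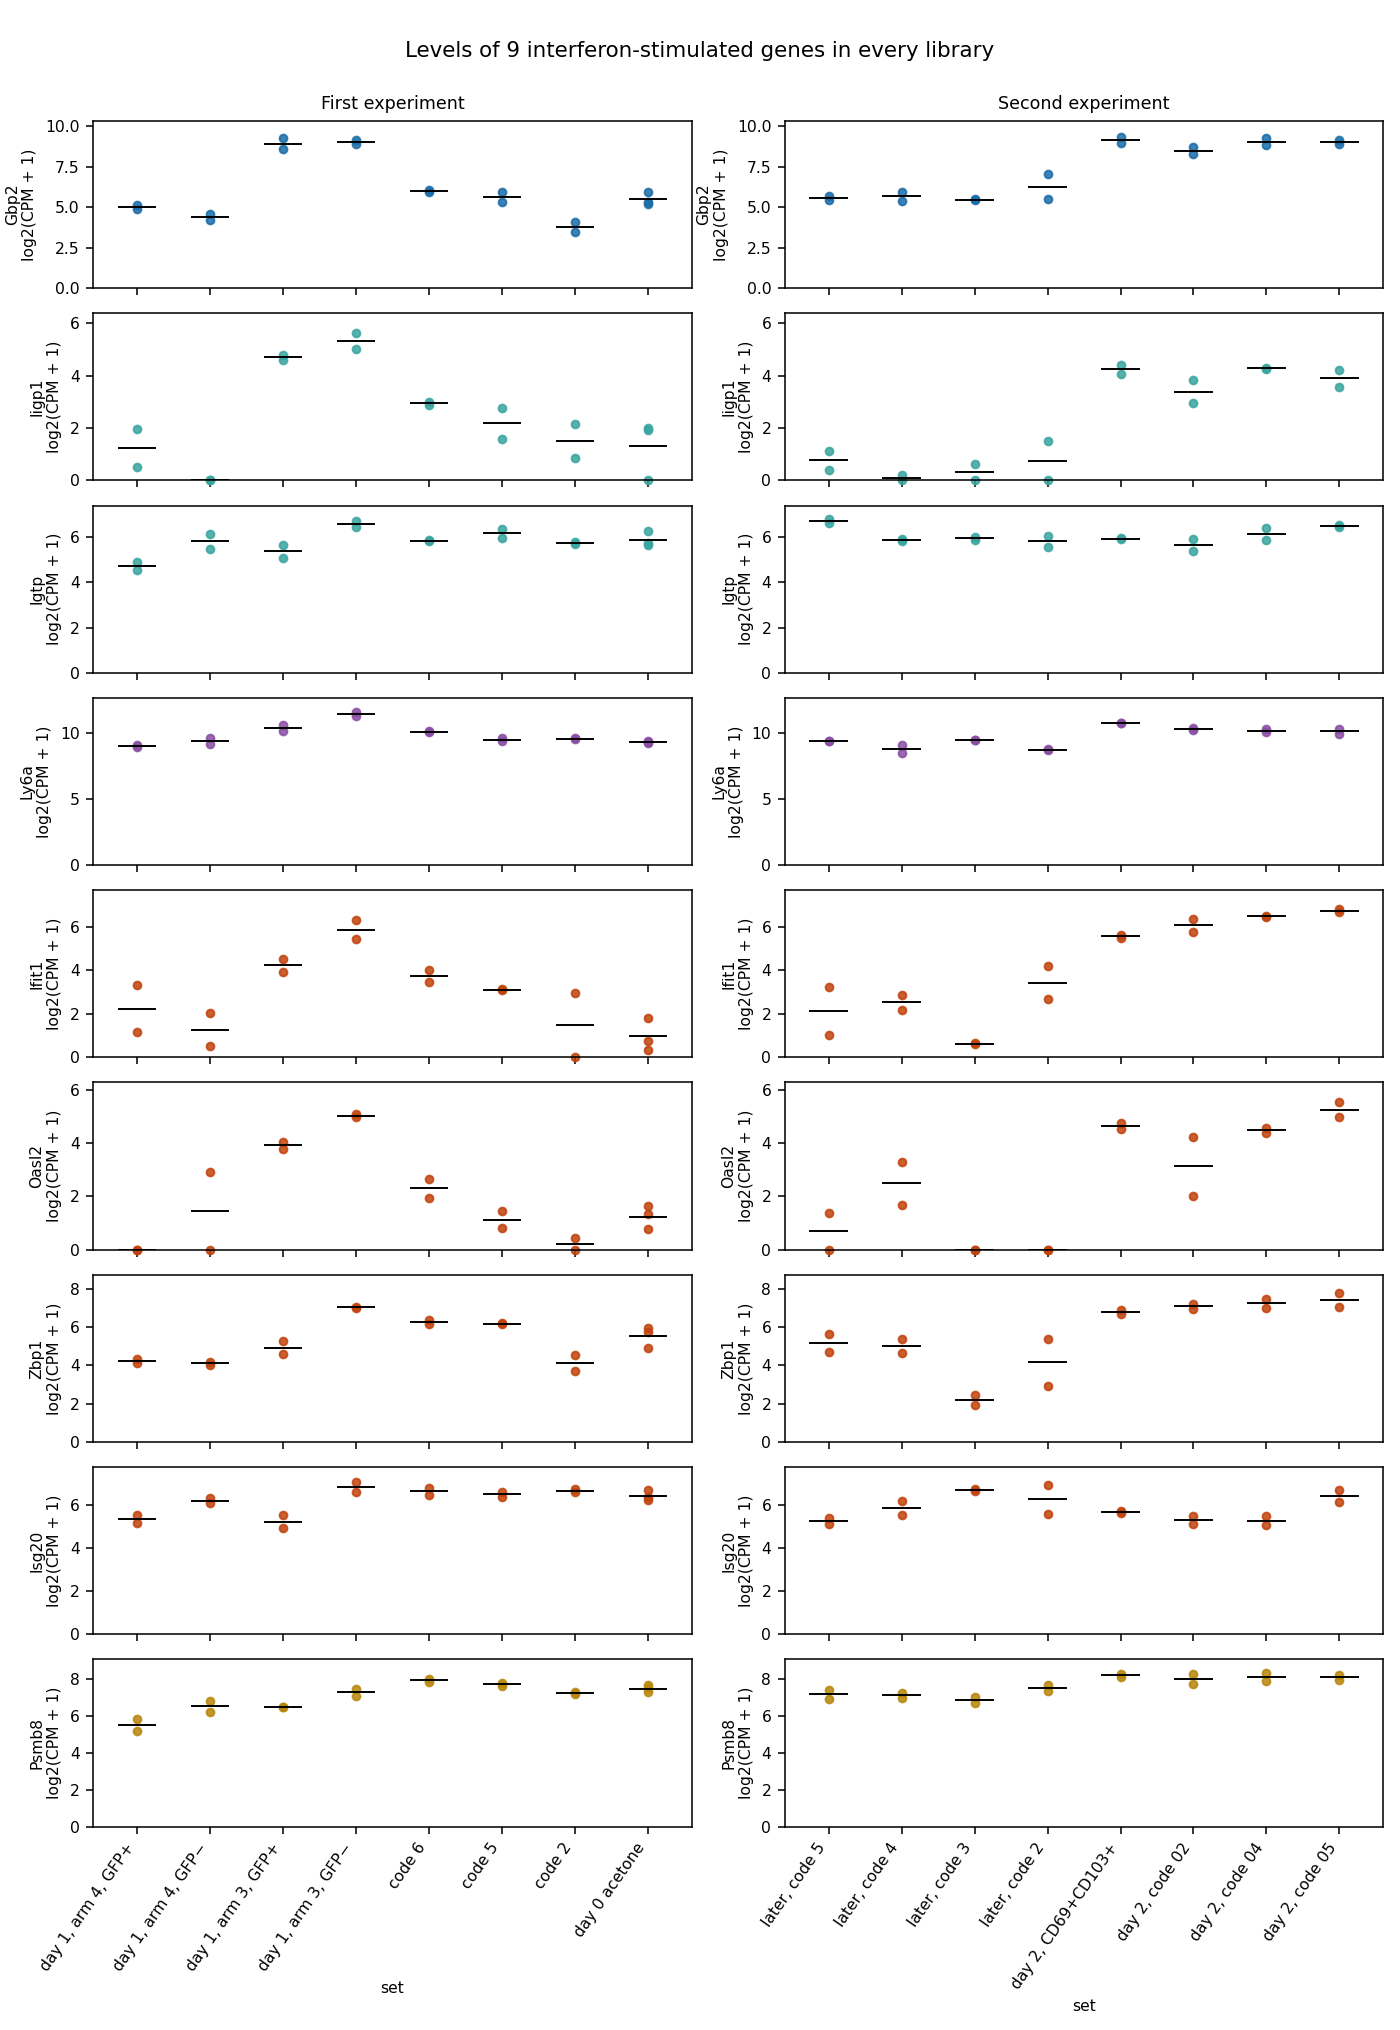
Levels of 9 members as log2(CPM + 1) by set; points are libraries and bars are set means. Gbp2 lies between 376 and 617 CPM in arm 3 of day 1 and between 17.1 and 33.4 CPM in arm 4, and Igtp spans 22.2 to 106 CPM over the first experiment.

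Between the arms of day 1, several members were lower in arm 4 than in arm 3, most of them GBP and antiviral genes. Among GFP-negative cells, 11 of 38 members were called lower in arm 4 and none higher, against 4.7% of all genes called lower. The called members were 3 of 7 GBP genes, 1 of 5 IRG genes, 6 of 16 antiviral genes and Ly6a. No transcription factor of the 4 and no antigen processing gene of the 3 was called, nor was Socs2. The median log2 fold change was −2.11 over GBP genes, −0.77 over IRG genes and −3.51 over antiviral genes, against −0.07 over all genes. With genes that had a set at 0 counts held at their lower bound, the GBP and antiviral medians were −1.90 and −2.76.

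Gbp2 had 23.1 and 17.1 CPM in arm 4 GFP-negative libraries, against 564 and 474 CPM in arm 3, a log2 fold change of −4.69 ± 0.34 (SE; adjusted p = 1.91e-08). Gbp7, another GBP gene, had 15.7 and 20.2 CPM in arm 4, against 70.6 and 84.6 CPM in arm 3 (−2.11 ± 0.55, adjusted p = 0.0253). Gbp4 had 32.6 and 29.0 CPM in arm 4, against 65.9 and 88 CPM in arm 3 (−1.32 ± 0.35, adjusted p = 0.0286). The arms did not overlap for any of the 3. Sets of 2 libraries can lie apart without any change, so here and below this describes the values and is not a test. In this comparison 32 of the 38 members lay apart and 11 were called, and the share of all genes that lay apart was not counted. Gbp3, with 0 and 1.19 CPM in arm 4 and 9.92 and 6.25 CPM in arm 3, was not called (adjusted p = 0.128).

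Among IRG genes the arms parted for Iigp1, whose product disrupts vacuoles of intracellular parasites. Iigp1 had 0 counts in both arm 4 GFP-negative libraries, against 48.6 and 31.7 CPM in arm 3, at least 66.2-fold lower in arm 4 (adjusted p = 0.00124, floor of 3 counts over the group). The other IRG genes were not called. Ifi47 had 124 and 65.5 CPM in arm 4, against 124 and 92.5 CPM in arm 3 (−0.19 ± 0.31, adjusted p = 0.787). Igtp had 44.1 and 69.5 CPM in arm 4, against 106 and 88.1 CPM in arm 3 (−0.77 ± 0.30, adjusted p = 0.151). The arms overlapped for Ifi47 and did not for Igtp.

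Among the classes, the antiviral genes had the lowest median and the most calls. Zbp1, a sensor of nucleic acids in Z form that can trigger cell death, had 15.3 and 17.1 CPM in arm 4, against 128 and 134 CPM in arm 3 (−3.02 ± 0.38, adjusted p = 2.7e-05). Ifit1, whose product binds viral RNA, had 0.412 and 3.17 CPM in arm 4, against 78.0 and 43.0 CPM in arm 3 (−5.04 ± 1.19, adjusted p = 0.0156). Both genes had arms that did not overlap. Oas3, which makes the second messenger that activates RNase L, had 0.412 and 1.19 CPM in arm 4, against 22.0 and 11.6 CPM in arm 3 (−4.34 ± 1.01, adjusted p = 0.0118). Isg15, a ubiquitin-like protein, had 0.825 and 1.98 CPM in arm 4, against 25.8 and 16.7 CPM in arm 3 (−3.89 ± 0.91, adjusted p = 0.0125). Xaf1 and Rtp4 completed the calls, at −2.25 ± 0.67 and −2.66 ± 0.79. Isg20, an exonuclease of the same class, had 79.6 and 66.7 CPM in arm 4, against 134 and 96.5 CPM in arm 3, and was not called (−0.65 ± 0.27, adjusted p = 0.167).

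Ly6a (chr15:74994877-74998031, minus strand) encodes the surface protein Sca-1. It had 571 and 780 CPM in arm 4 GFP-negative libraries, against 3110 and 2569 CPM in arm 3 (−2.07 ± 0.17, adjusted p = 8.39e-08). Its neighbour on chromosome 15, Ly6e, did not move with it: 1612 and 1716 CPM in arm 4, against 1804 and 1728 CPM in arm 3 (−0.09 ± 0.12, adjusted p = 0.738). The count of calls fell with each of these libraries left out in turn. Each such fit leaves 1 library in a set, and calls over all genes fell too. Gbp2, Ly6a, Iigp1 and Zbp1 kept their calls with each library left out and under every other setting run, and the other 7 lost theirs in at least 1.

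**Figure D3:**
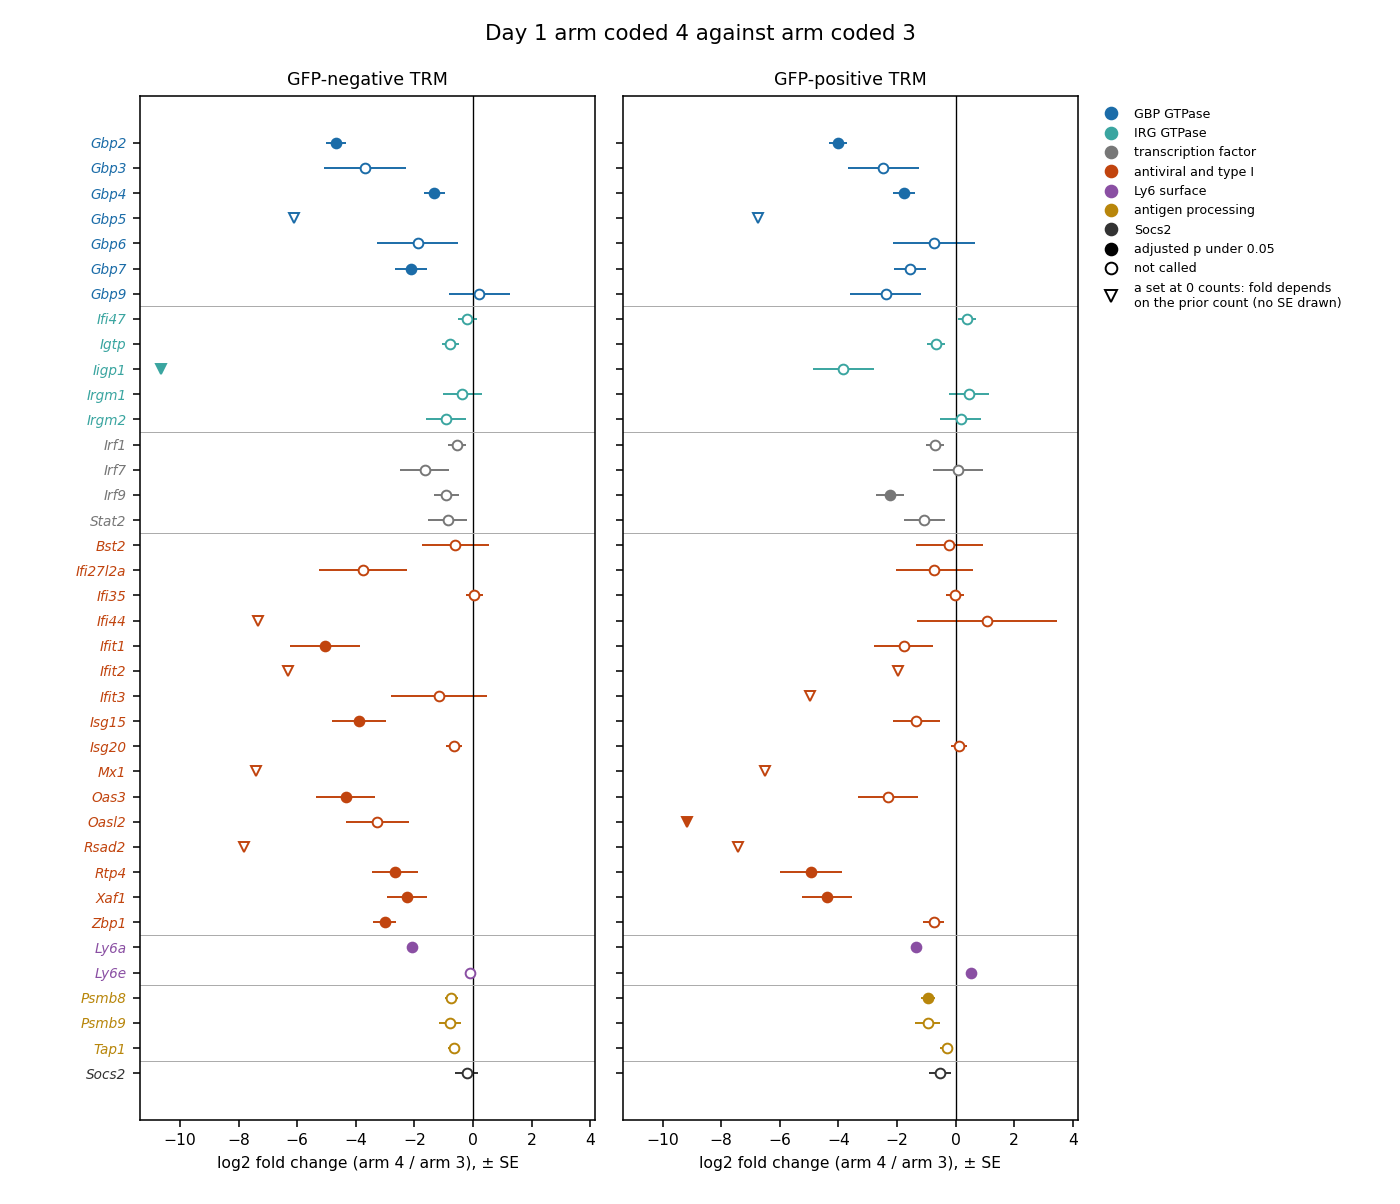
Log2 fold change of each tested member, arm 4 over arm 3 at day 1, with a panel for each GFP state and SE bars; filled points have an adjusted p under 0.05, open points are not called and triangles mark a set at 0 counts. Gbp2 stands at −4.69 and −4.02, and most other members lie left of 0.

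In GFP-positive cells the arms differed in a partly shared way. Of 38 members, 8 were called lower in arm 4 (2.24% of all genes were) and 1 higher (0.923% of all genes). The lower ones were 2 of 7 GBP genes, 3 of 16 antiviral genes, Irf9, Ly6a and Psmb8, and 0 of 5 IRG genes were called. Gbp2 had 28.1 and 33.4 CPM in arm 4, against 376 and 617 CPM in arm 3 (−4.02 ± 0.32, adjusted p = 1.89e-07). Gbp4 had 10.4 and 5.29 CPM in arm 4, against 31.9 and 22.0 CPM in arm 3 (−1.76 ± 0.38, adjusted p = 0.0131). Both GBP genes were apart in all 4 libraries.

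Xaf1, an apoptosis-associated factor, had 0.326 and 0.814 CPM in arm 4 GFP-positive libraries, against 14.8 and 9.38 CPM in arm 3 (−4.40 ± 0.86, adjusted p = 0.006). Oasl2, an OAS-like gene, had 0 counts in both arm 4 libraries, against 15.6 and 12.8 CPM in arm 3, at least 26.2-fold lower (adjusted p = 0.0123). Irf9, the DNA-binding part of the type I complex, had 4.24 and 4.88 CPM in arm 4, against 14.8 and 28.5 CPM in arm 3 (−2.24 ± 0.47, adjusted p = 0.0104). Each of the 3 was apart between the arms. Ly6a had 504 and 537 CPM in arm 4, against 1122 and 1548 CPM in arm 3 (−1.36 ± 0.16, adjusted p = 3.41e-05), while Ly6e was the 1 member called higher, with 1067 and 1033 CPM in arm 4, against 702 and 750 CPM in arm 3 (0.53 ± 0.12, adjusted p = 0.0139). Psmb8 had 55.8 and 35.8 CPM in arm 4, against 88.8 and 89.2 CPM in arm 3 (−0.95 ± 0.24, adjusted p = 0.0312). Iigp1 missed the threshold, with 2.94 and 0.407 CPM in arm 4 and 23.5 and 26.6 CPM in arm 3 (adjusted p = 0.054). The count was 6 without any one of library A or B of arm 3 or library A of arm 4, and 4 without library B of arm 4; Gbp2 and Ly6a kept their calls throughout.

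Other measures moved with the arms. Arm 4 libraries were shallower, at 2442825 to 3262545 counts against 5440609 to 8515297 in arm 3, and held 29.3 to 36.7% mitochondrial counts against 22.4 to 28.6%. Summed keratinocyte markers were 473 to 631 CPM in arm 4 and 2463 to 2923 CPM in arm 3 among GFP-negative libraries, with 11 of 15 genes called lower. Summed phagocyte markers were 51.1 to 96.0 CPM in arm 4 and 893 to 996 CPM in arm 3, with C1qa, C1qb, C1qc, Csf1r, Lyz2 and Tyrobp at 0 in arm 4 and Lyz2 at 0 in arm 3, and with 4 of 13 tested genes called lower. Summed neutrophil markers were 12.7 to 14.8 CPM in arm 4 and 102 to 110 CPM in arm 3, with 3 of 5 called lower. Of 7 CD8 T cell markers 3 were called lower too, with sums of 2973 to 3286 CPM in arm 4 and 4235 to 4595 CPM in arm 3. In GFP-positive cells the sums in arm 4 and arm 3 were 637 to 735 and 1394 to 1925 CPM for keratinocytes, 357 to 413 and 878 to 1043 CPM for phagocytes, and 15.5 to 43.4 and 108 to 124 CPM for neutrophils. Fibroblast markers went the other way. Their sums were 11.9 to 41.7 CPM in arm 4 and 4.76 to 13.7 CPM in arm 3 among GFP-negative libraries. Of 7 tested genes 1 was called higher in arm 4. In GFP-positive libraries the sums were 44.1 to 48 CPM in arm 4 and 1.85 to 3.45 CPM in arm 3, with 2 called higher. The part of all these measures in the results was not tested.

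GFP-positive cells, those with recent receptor signalling, had lower levels of many members than GFP-negative cells while their Ifng was far higher. Over both arms 14 of 38 members were called lower in GFP-positive cells and none higher, against 6.51% of all genes called lower. They were 3 of 3 antigen processing genes, 2 of 2 Ly6 genes, 2 of 4 transcription factors, 5 of 16 antiviral genes, 1 of 7 GBP genes and 1 of 5 IRG genes. Class medians were −0.73 over GBP, −0.69 over IRG and −0.72 over antiviral genes, against −0.03 over all genes. The antiviral median was −0.94 with the ratio of mean CPM used for genes that have a set at 0 counts. By arm, the antiviral median was −0.04 in arm 4 (−0.12 with genes at 0 counts at their bound) and −1.43 in arm 3. The IRG median was −0.37 in arm 4 and −1.10 in arm 3, and the GBP median −0.29 and −0.12, against 0.00 and −0.03 over all genes. Among cell type markers, 3 of 7 CD8 T cell genes were called lower in GFP-positive cells over both arms. CD8 T cell markers summed to 3028 to 3077 CPM in GFP-positive and 2973 to 3286 CPM in GFP-negative libraries of arm 4. In arm 3 they summed to 2444 to 2446 CPM in GFP-positive and 4235 to 4595 CPM in GFP-negative libraries, with 4 of 7 called lower. Of 13 phagocyte genes 5 were called higher, and of 15 keratinocyte genes 3 lower and 1 higher. Their part in the result was not tested.

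Ly6e had 1067 and 1033 CPM in GFP-positive against 1612 and 1716 CPM in GFP-negative libraries of arm 4, and 702 and 750 against 1804 and 1728 CPM in arm 3 (−0.97 ± 0.08 over both arms, adjusted p = 9.33e-08). Psmb9, an immunoproteasome subunit, had 5.88 and 3.66 against 19.0 and 15.9 CPM in arm 4, and 11.4 and 7.27 against 35.3 and 24.7 CPM in arm 3 (−1.76 ± 0.29, adjusted p = 0.000295). Gbp4 had 10.4 and 5.29 against 32.6 and 29.0 CPM in arm 4, and 31.9 and 22.0 against 65.9 and 88 CPM in arm 3 (−1.73 ± 0.26, adjusted p = 0.000121). In each arm the GFP-positive libraries of these 3 genes lay below the GFP-negative ones. Igtp, the IRG gene called, had 22.2 and 29.3 against 44.1 and 69.5 CPM in arm 4, and 49.1 and 33.3 against 106 and 88.1 CPM in arm 3 (−1.19 ± 0.22, adjusted p = 0.000874). Isg20 had 35.3 and 45.2 against 79.6 and 66.7 CPM in arm 4, and 29.5 and 45.2 against 134 and 96.5 CPM in arm 3 (−1.25 ± 0.19, adjusted p = 0.000152).

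Unlike Gbp4, Gbp2 did not pass the test. It had 28.1 and 33.4 CPM in GFP-positive against 23.1 and 17.1 CPM in GFP-negative libraries of arm 4, and 376 and 617 against 564 and 474 CPM in arm 3, where the libraries overlapped (0.27 ± 0.21 over both arms, adjusted p = 0.47). The other calls over both arms were Irf1, Irf9, Ly6a, Psmb8, Tap1, Xaf1, Zbp1, Rtp4 and Oasl2, with log2 fold changes of −0.53 (Tap1) to −4.11 (Oasl2, which has a set at 0 counts). With single libraries left out the count ran from 10 to 13. Isg20, Ly6a, Psmb8, Ly6e, Gbp4, Irf9, Psmb9 and Igtp kept their calls with each library left out and in all other settings. Oasl2 and Rtp4 lost theirs without several libraries, and without library A of arm 4 GFP-negative they stood at −0.55 (adjusted p = 1) and −1.13 (adjusted p = 0.469). Irf1, Zbp1, Xaf1 and Tap1 lost theirs without at least 1 library, at adjusted p up to 0.155.

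Within arms, 8 members were called lower in GFP-positive cells of arm 3 (3.03% of all genes) and 7 in arm 4 (4.01%). In arm 3 they were Ly6e, Ly6a, Zbp1, Isg20, Psmb9, Gbp4, Igtp and Psmb8. In arm 4 they were Ly6e, Gbp4, Irf9, Psmb8, Psmb9, Igtp and Xaf1. The arm 3 count was 5 without library A of its GFP-negative set and 4 without library B of its GFP-positive set. The arm 4 count was 2 without library B of its GFP-positive set.

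A test of the difference between the arms in the GFP difference called 1 member, Zbp1 (0.639% of all genes were called in this direction). Zbp1 had 19.3 and 16.3 CPM in GFP-positive against 15.3 and 17.1 CPM in GFP-negative libraries of arm 4 (log2 fold change 0.14 ± 0.38). In arm 3 it had 23.1 and 37.1 against 128 and 134 CPM (−2.12 ± 0.35). The difference of these, 2.26 ± 0.52, had an adjusted p of 0.041. That call was lost with any library left out except library B of arm 3 GFP-positive, at adjusted p of 0.0561 to 0.162.

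**Figure D4:**
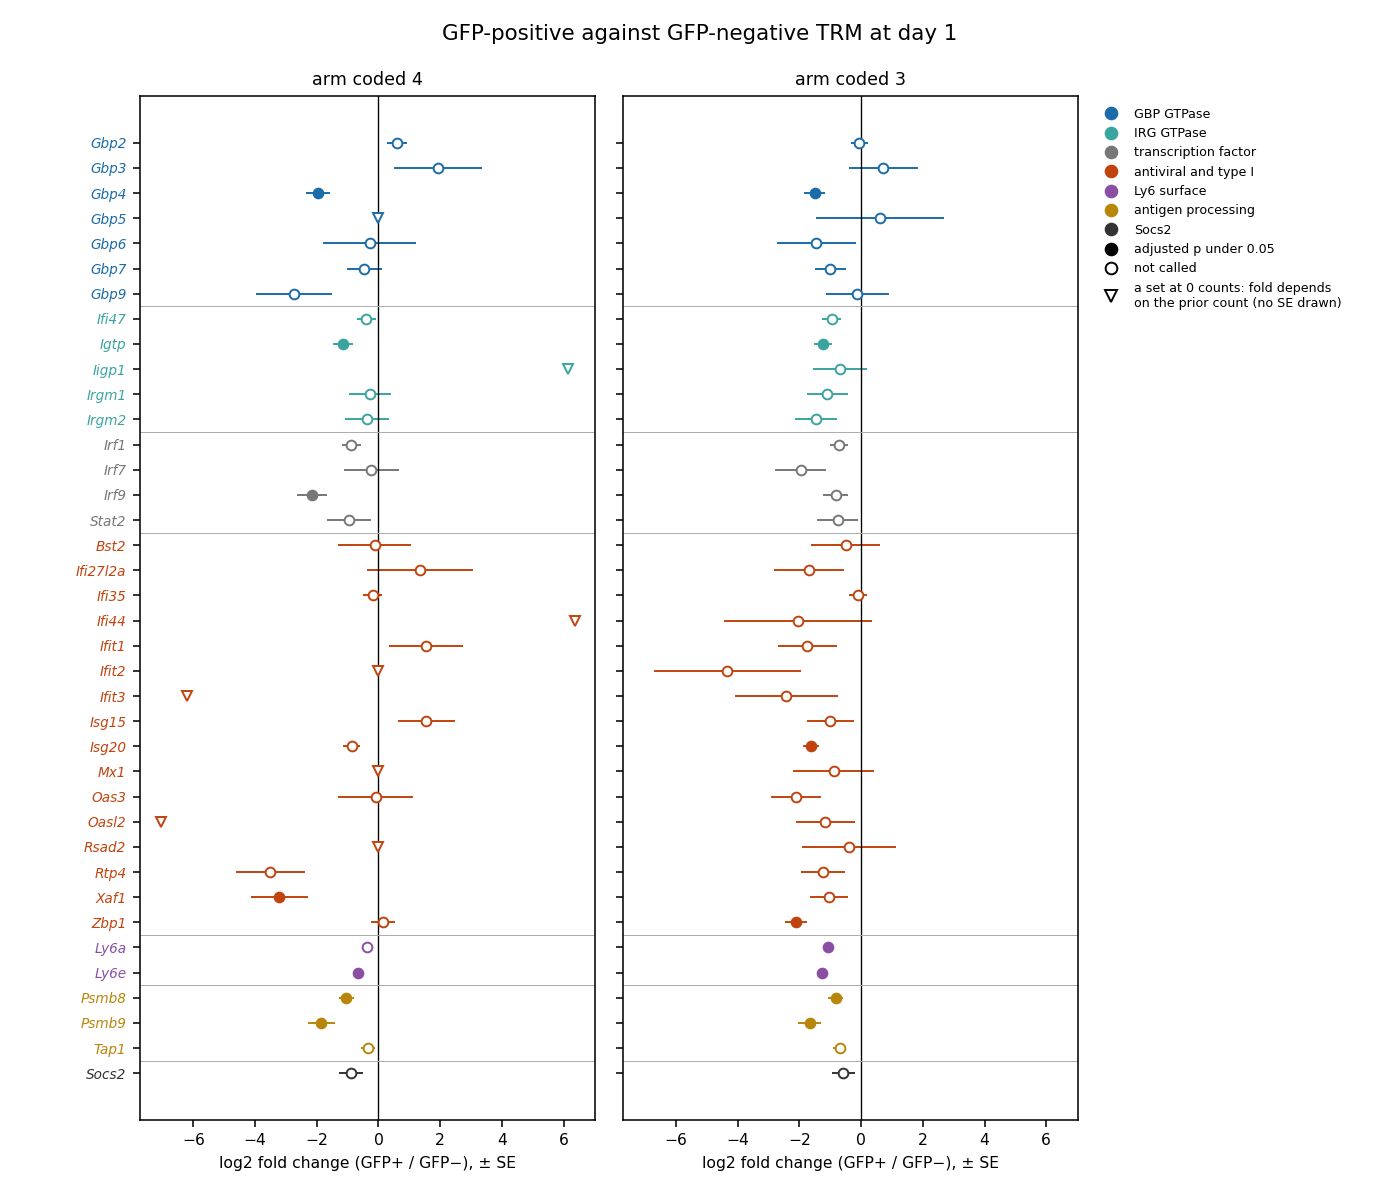
Log2 fold change of each tested member, GFP-positive over GFP-negative at day 1, in arm 4 and in arm 3, with SE bars; filled points have an adjusted p under 0.05, open points are not called and triangles mark a set at 0 counts. Ly6e, Psmb9, Gbp4 and Igtp are called in both panels, and Zbp1 stands at 0.14 in arm 4 and −2.12 in arm 3.

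The upstream genes were read beside these counts. Ifng had 1301 and 1371 CPM in GFP-positive against 346 and 320 CPM in GFP-negative libraries of arm 4, and 12924 and 12191 against 1083 and 1228 CPM in arm 3. It was called higher in GFP-positive cells over both arms (2.72 ± 0.12, adjusted p = 2.7e-12), and the gain was smaller in arm 4 (−1.44 ± 0.22 for the difference, adjusted p = 0.00146). Ifngr1 was lower in GFP-positive cells (−0.86 ± 0.15) and Irf8, a transcription factor that interferon gamma induces, was higher (2.43 ± 0.46). Between arms in GFP-negative cells, Ifng (−1.80 ± 0.16), Irf8 (−2.88 ± 0.69) and Socs3 (−2.74 ± 0.55) were called lower in arm 4. Ifngr1 (1.52 ± 0.21) and Socs1, a brake on JAK kinases (0.87 ± 0.22), were called higher in arm 4. In GFP-positive cells, Ifng (−3.23 ± 0.17) and Jak2 (−2.03 ± 0.45) were called lower in arm 4. Ifnb1 has no row in the tables used here, and Ifnar1, Ifnar2, Jak1, Tyk2 and Irf2 were not called in any comparison between arms or by GFP.

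A further list of 47 interferon genes, Irf8, Irf2 and Socs1 among them, had 40 tested in each experiment. Of these, 12 were called lower (4.7% of all genes) and 1 higher (1.98% of all genes) in arm 4 than in arm 3 in GFP-negative cells. Those with the smallest p were Ifitm3 (−2.76), Cxcl9 (−9.16), Cxcl10 (−5.60) and Tapbp (−1.42). In GFP-positive cells 5 were called lower (2.24% of all genes) and none higher in arm 4. By GFP over both arms 7 were called lower (6.51% of all genes), among them Lgals3bp (−1.98), Pml (−2.31) and Samhd1 (−1.71), and 3 higher (5.59% of all genes), among them Psme2 (0.62).

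Set against day 0 acetone, GFP-negative cells of arm 3 were higher and those of arm 4 lower in the members called, and both comparisons share the day 0 libraries. In arm 3, 6 of 38 members were called higher and none lower (2.78% of all genes higher). Gbp2 had 564 and 474 CPM in arm 3, against 38.2, 35.9 and 61.1 CPM at day 0 (3.53 ± 0.26, adjusted p = 5.51e-08). Ly6a had 3110 and 2569 CPM, against 649, 671 and 612 CPM (2.14 ± 0.15, adjusted p = 1.21e-08). Ifit1 had 78.0 and 43.0 CPM, against 2.47, 0.701 and 0.249 CPM (5.66 ± 1.00, adjusted p = 0.00236). None of the 3 overlapped between the sets, and they kept their calls in all settings and with each library left out. Iigp1 (4.31 ± 0.86), Oasl2 (4.46 ± 0.95) and Zbp1 (1.47 ± 0.30) were the other calls. The count was 4 without library A or B of arm 3 and 5 without library B of day 0. Class medians were 1.35 over GBP, 0.82 over IRG and 1.43 over antiviral genes, against −0.03 over all genes.

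In arm 4, 5 of 38 members were called lower than at day 0 and none higher (5.15% of all genes lower). Zbp1 had 15.3 and 17.1 CPM in arm 4, against 52.5, 60.3 and 28.9 CPM at day 0 (−1.55 ± 0.35, adjusted p = 0.00755). Oas3 had 0.412 and 1.19 CPM, against 21.5, 17.1 and 12.5 CPM (−4.36 ± 0.98, adjusted p = 0.00769). Psmb8 had 75.1 and 114 CPM, against 157, 186 and 204 CPM (−0.94 ± 0.22, adjusted p = 0.00924). Gbp2 (−1.16 ± 0.29) and Tap1, a peptide transporter subunit (−0.71 ± 0.21), were the other calls, and none of the 5 overlapped. Ly6a did not follow: 571 and 780 CPM in arm 4, against 649, 671 and 612 CPM at day 0 (0.07 ± 0.15, adjusted p = 0.829). The count was 1 without library A of arm 4 and 3 without its library B, and no member kept its call throughout. Ifng was called higher in arm 3 than at day 0 (0.58 ± 0.14) and lower in arm 4 (−1.22 ± 0.15). Keratinocyte markers summed to 3051 to 3455 CPM, phagocyte markers to 291 to 427 CPM and neutrophil markers to 7.73 to 14.2 CPM at day 0, against the arm values above. Fibroblast markers summed to 38.2 to 157 CPM at day 0, with 2 of 7 called lower in arm 3 and 1 in arm 4. CD8 T cell markers summed to 5072 to 6003 CPM at day 0. Of these 7 genes 4 were called lower in arm 4, and in arm 3 2 were lower and 1 higher. The part of these markers was not tested.

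The sets coded 2, 5 and 6, were also set against day 0 acetone, with the same libraries. In code 2, 4 members were called lower (2.34% of all genes) and none higher. Socs2, a feedback inhibitor of cytokine receptors, had 6.30 and 22.9 CPM in code 2, against 101, 57.2 and 79.3 CPM at day 0 (−2.42 ± 0.40, adjusted p = 0.00103). Gbp2 had 10.2 and 15.7 CPM, against 38.2, 35.9 and 61.1 CPM (−1.78 ± 0.31, adjusted p = 0.00142). Both were apart from day 0 in each library and kept their calls throughout. Zbp1 (−1.45 ± 0.34) and Irf1 (−1.14 ± 0.29) were the others, and the count was 2 without library A of day 0 and 2 without library B of code 2. The IRG median of code 2 was 0.76, with 0 of 5 called. Ifng was lower in code 2 (−1.58 ± 0.15) and Ifngr1 higher (0.85 ± 0.19). Code 2 libraries held 2560156 to 2952120 counts, 34.9 to 36.3% of them mitochondrial, against 3488476 to 6982296 counts and 24.9 to 31.5% at day 0. Summed phagocyte markers were 55.7 to 113 CPM in code 2 and 291 to 427 CPM at day 0, with 5 of 13 called lower. Summed CD8 T cell markers were 3970 to 4392 CPM in code 2 and 5072 to 6003 CPM at day 0, with 2 of 7 called lower. Their part was not tested.

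In code 5, edgeR called 0 of 38 members (0.897% of all genes in either direction), with 3 at an unadjusted p under 0.05, and DESeq2 called 0 as well. Gbp2 had 38.6 and 59.0 CPM in code 5, against 38.2, 35.9 and 61.1 CPM at day 0, which overlap. In code 6, 2 members were called higher (2.86% of all genes) and 2 lower (1.7%). Ly6a had 1116 and 1070 CPM in code 6, against 649, 671 and 612 CPM at day 0 (0.76 ± 0.15, adjusted p = 0.00323). Ifit1 had 15.5 and 10.2 CPM, against 2.47, 0.701 and 0.249 CPM (3.43 ± 0.96, adjusted p = 0.049). Gbp4 had 15.4 and 20.0 CPM, against 58.1, 49.1 and 57.6 CPM (−1.63 ± 0.33, adjusted p = 0.00538), and Irf1, an activator of GBP and antigen processing genes, had 45.2 and 53.6 CPM, against 125, 84.4 and 93.5 CPM (−1.03 ± 0.29, adjusted p = 0.0432). Code 6 and day 0 did not overlap for these 4. The count was 2 without library C of day 0, 1 without library A of code 6 and 2 without its library B, and Ly6a alone kept its call throughout. Keratinocyte markers summed to 6543 to 6760 CPM in code 6, 972 to 1070 CPM in code 5 and 1924 to 2002 CPM in code 2, against 3051 to 3455 CPM at day 0, and their part was not tested.

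At day 2 after challenge no difference of a member between subsets passed the test. In CD69+CD103+ cells against the mean of the other 3 subsets, edgeR called 0 of 41 members (0.368% of all genes), with 2 at an unadjusted p under 0.05 and 0 by DESeq2. For any difference among the 4 subsets it called 0 (1.21% of all genes), with 7 at an unadjusted p under 0.05 and 1 by DESeq2. Gbp2 had 503 and 635 CPM in CD69+CD103+ cells, against 417 and 309 in code 02, 456 and 612 in code 04 and 574 and 481 in code 05. Ly6a had 1740 and 1740 CPM in CD69+CD103+ cells, against 1201 and 1329, 1236 and 1098, and 999 and 1289 CPM in the same order of codes (0.55 ± 0.15, adjusted p = 0.185). Gbp2 overlapped with the other subsets, and Ly6a lay above each of them. Ifit1 had 49.2 and 44.8 CPM in CD69+CD103+ cells, against 54.5 and 82.3, 91.3 and 87.8, and 112 and 102 CPM (−0.89 ± 0.49, adjusted p = 0.845), and lay below each of them. A p that misses the threshold does not show that the subsets are alike. Of 13 upstream interferon pathway genes, 5 were called for any difference among the subsets (1.21% of all genes). None was called in CD69+CD103+ cells against the others. Ifng had 353 and 381 CPM in CD69+CD103+ cells and 825 and 933 CPM in code 02. It had 187 and 198 CPM in code 04 and 113 and 171 CPM in code 05.

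Of the comparisons made, that of later cells with day 2 held the most called members. In CD69+CD103+ cells of day 11 and day 42 as 1 group, 19 of 41 members were called lower than in CD69+CD103+ cells of day 2 and none higher, against 4.89% of all genes called lower. They were 5 of 7 GBP genes, 11 of 19 antiviral genes, 1 of 5 IRG genes, Ly6a and Psmb8, with 0 of 4 transcription factors. The median log2 fold change was −2.75 over GBP genes and −3.68 over antiviral genes. It was 0.17 over IRG genes and −0.07 over all genes. The antiviral median was −2.88 with genes at 0 counts in all later sets held at their bound. Genes at 0 counts in only some later sets entered it with their ratio of mean CPM. Each later set holds 2 libraries, and the day 2 set holds 2. All later cells came from skin given TA or acetone and the day 2 cells from untreated mice. Time and topical treatment therefore cannot be told apart here.

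Gbp2 ran from 40.1 to 132 CPM with a median of 43.5 over the 8 later libraries, against 503 and 635 CPM at day 2 (−3.38 ± 0.25, adjusted p = 1.48e-07). Gbp3 had 13.1, 12.6, 24.4, 18.0, 12.9, 7.53, 0.932 and 3.86 CPM in the later libraries, in order of code, against 82.7 and 63.3 CPM at day 2 (−2.97 ± 0.27, adjusted p = 8.43e-07). Gbp7 ran from 24.6 to 76.4 CPM later, against 147 and 185 CPM (−1.76 ± 0.23, adjusted p = 4.51e-05). No later library reached a day 2 library for these 3. Gbp4 did not move with them, from 24.1 to 71.7 CPM later, against 42.9 and 36.8 CPM at day 2 (0.07 ± 0.29, adjusted p = 0.963).

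The IRG genes split. Iigp1 ran from 0 to 1.83 CPM in later libraries, against 20.3 and 15.9 CPM at day 2 (−5.50 ± 0.74, adjusted p = 6.84e-05). Igtp ran from 46.6 to 110 CPM later, against 59.4 and 61.4 CPM (0.17 ± 0.23, adjusted p = 0.792), and Ifi47 from 28.1 to 139 CPM, against 96.8 and 102 CPM (−0.30 ± 0.27, adjusted p = 0.616). Irgm1 and Irgm2, regulators of the other IRG proteins, had fold changes of 0.47 ± 0.46 and 0.58 ± 0.51. Iigp1 was apart between the times, and the other 4 overlapped.

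Ifi27l2a, an interferon-induced gene, had the smallest p of the antiviral genes. It ran from 1.24 to 6.00 CPM in later libraries, against 73.8 and 68.2 CPM at day 2 (−4.44 ± 0.28, adjusted p = 1.03e-08). Ifit1 ran from 0.521 to 17.3 CPM with a median of 4.51 later, against 49.2 and 44.8 CPM (−3.80 ± 0.44, adjusted p = 1.43e-05). Oasl2 had 0 counts in 5 of the later libraries and 8.75, 2.21 and 1.60 CPM in the others, against 25.9 and 22.2 CPM, and its mean CPM was 15.3 times lower (adjusted p = 5.28e-05). Xaf1 ran from 1.94 to 13.3 CPM later, against 27.9 and 50.8 CPM (−2.95 ± 0.40, adjusted p = 6.92e-05). None of the 4 overlapped. Usp18, which removes ISG15 from proteins, and Oas2 had 0 counts in all 8 later libraries, at least 24.8-fold and 26.8-fold lower than at day 2. Rsad2, Ifit2, Ifit3, Rtp4 and Zbp1 were also called lower, and Oas1a narrowly missed (adjusted p = 0.0501). Isg20 did not move with its class, from 33.2 to 120 CPM later, against 52.2 and 48.0 CPM at day 2 (0.39 ± 0.31, adjusted p = 0.57).

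Ly6a ran from 358 to 704 CPM in later libraries, against 1740 and 1740 CPM at day 2 (−1.67 ± 0.13, adjusted p = 1.47e-07). Psmb8 ran from 103 to 207 CPM later, against 281 and 318 CPM (−1.05 ± 0.18, adjusted p = 0.00113), while Psmb9 (−0.76 ± 0.29) and Tap1 (−0.56 ± 0.25) were not called. Ly6a and Psmb8 were apart between the times. The count ran from 14 to 21 with single libraries left out, and 14 of the 19 members kept their call throughout. Gbp6 and Rtp4 lost theirs without library 2 of day 2, at −1.72 (adjusted p = 0.457) and −2.52 (adjusted p = 0.0803). Gbp5, Oas2 and Usp18 lost theirs without either day 2 library, at adjusted p up to 0.295, and Oas2 also without library 2 of code 4 or of code 5 (adjusted p = 0.0518 each).

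**Figure D5:**
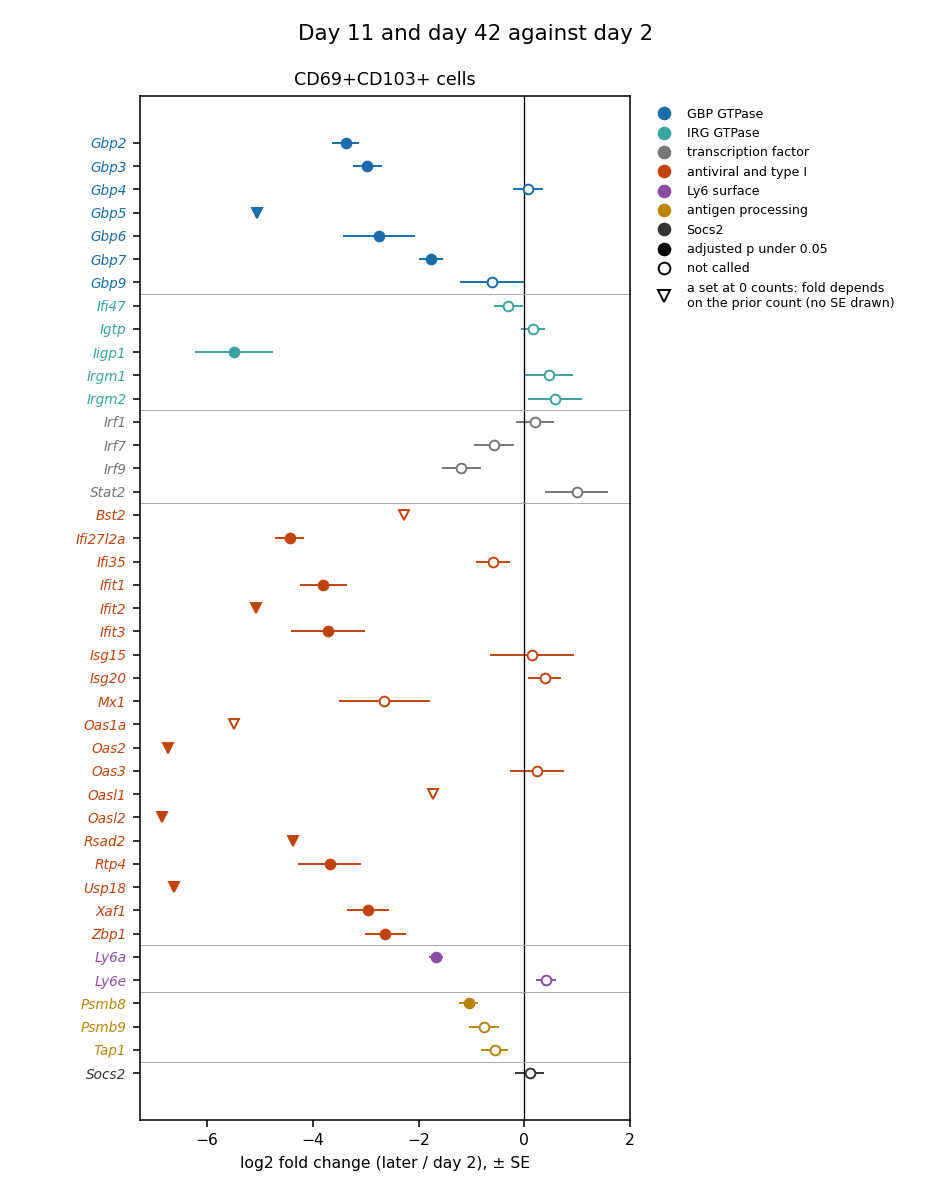
Log2 fold change of each tested member in day 11 and day 42 CD69+CD103+ cells over day 2 CD69+CD103+ cells, with SE bars; filled points have an adjusted p under 0.05, open points are not called and triangles mark a set at 0 counts. Most GBP and antiviral genes lie left of 0, while Igtp, Irgm1, Irgm2 and Gbp4 lie between 0.07 and 0.58.

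Ifng did not move with the GBP and antiviral genes: it ran from 200 to 1575 CPM in later libraries, against 353 and 381 CPM at day 2, and was called higher (0.84 ± 0.21, adjusted p = 0.0157). Ifngr2 was called higher too (1.57 ± 0.41), and Irf8 (−2.54 ± 0.43) and Jak2 (−1.24 ± 0.18) lower. Of the 40 further interferon genes tested, 17 were called lower (4.89% of all genes) and none higher. Those with the smallest p were Ifitm3 (−2.46), Cxcl9 (−7.15), Slfn1 (−3.27) and Psme1 (−1.49). Summed keratinocyte markers were 2143 to 6442 CPM in later libraries and 5548 to 7913 CPM at day 2, with 5 of 15 called lower and 1 higher. Summed phagocyte markers were 399 to 1015 CPM later and 558 to 655 CPM at day 2, with 1 of 14 called lower. Summed neutrophil markers were 2.66 to 19.2 CPM later and 138 to 139 CPM at day 2, with 3 of 4 called lower. Summed CD8 T cell markers were 4618 to 6563 CPM later and 3543 to 3969 CPM at day 2, with 3 of 7 called higher. Their part in the result was not tested.

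Among the 4 later sets, a test for any difference called 2 of 41 members, Gbp3 (adjusted p = 0.00849) and Oasl2 (adjusted p = 0.026), against 2.12% of all genes. The codes allow 3 pairings of sets, of which 1 is TA against acetone and 1 is day 42 against day 11. The remaining 1 is how the treatment difference changes between the days. Which pairing is which is unknown. Codes 4 and 5 against codes 2 and 3 gave 2 members higher (0.883% of all genes) and 1 lower (0.785%). Gbp3 had 12.9, 7.53, 0.932 and 3.86 CPM in codes 4 and 5, against 13.1, 12.6, 24.4 and 18.0 CPM in codes 2 and 3 (−1.66 ± 0.31, adjusted p = 0.00834). Zbp1 had 41.2, 24.4, 48.8 and 25.3 CPM, against 40.7, 6.62, 2.77 and 4.43 CPM (1.88 ± 0.44, adjusted p = 0.0413). Oasl2 had 8.75, 2.21, 0 and 1.60 CPM, against 0 counts in all 4 libraries, at least 18-fold higher (adjusted p = 0.0242). All 3 overlapped in part: 12.9 CPM of Gbp3 in code 4 exceeds 12.6 in code 2, 40.7 CPM of Zbp1 in code 2 exceeds 24.4 in code 4, and 1 library of Oasl2 in code 5 is at 0. Ifng was called higher in codes 4 and 5 (1.67 ± 0.18).

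Codes 3 and 5 against codes 2 and 4 gave 1 member, Ly6a, higher (0.237% of all genes), with 704, 693, 672 and 679 CPM, against 410, 439, 539 and 358 CPM (0.66 ± 0.13, adjusted p = 0.0303). The groups did not overlap. Summed fibroblast markers were 180 to 435 CPM in codes 3 and 5, against 55 to 111 CPM in codes 2 and 4. Of 8 fibroblast genes 1 was called higher. Summed phagocyte markers were 399 to 449 CPM, against 577 to 1015 CPM, with 5 of 14 called lower. Of 15 keratinocyte genes 2 were called lower, and the part of these markers was not tested. Codes 2 and 5 against codes 3 and 4 gave 0 by edgeR (0.4% of all genes), with 12 at an unadjusted p under 0.05 and 4 by DESeq2. These counts rest on single libraries. For any difference, the count was 8 without library 1 of code 2, 4 and 5 without libraries 1 and 2 of code 3, and 5 without library 2 of code 5. For codes 4 and 5 against 2 and 3 it was 1 without library 1 of code 3 and 1 without library 2 of code 5, and Gbp3 kept its call throughout. Zbp1 lost its call in 6 of the 8 leave-outs (adjusted p = 0.0658 to 0.239) and Oasl2 in 5 of 8 (adjusted p = 0.05 to 1), and both lost it with libraries thinned to the shallowest (0.0533 and 0.0601). For codes 3 and 5 against 2 and 4, Ly6a lost its call in 6 of 8 leave-outs (adjusted p = 0.0619 to 0.125), and kept it without library 1 of code 3 or of code 4. The count was 3 without library 1 of code 2, where Ly6a was not among them, 2 without library 1 of code 3, and 0 without library 2 of code 3, 4 or 5. For codes 2 and 5 against 3 and 4 it was 1 without library 2 of code 2, 1 without library 2 of code 4 and 3 without library 2 of code 5.

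Some members share sequence, which limits how reads can be assigned. Of the last 500 transcript bases, the share of 75-base windows found in another gene was 70.2% for Gbp6 (with Gbp9 and Gbp10), 46% for Oas1a, 21.5% for Socs2, 10.9% for Gbp4 and 9.86% for Ifit3, and at most 2.86% for other members with a row. Gbp4 and Gbp9 overlap on the minus strand of chromosome 5, and Igtp and Irgm2 on the plus strand of chromosome 11. Values of these genes are uncertain to that extent.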

How the data were processed

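The deposited tables hold counts, as raw reads for each gene and library. The submitters' processing notes name bcl2fastq 2.2, BWA 0.7.15, HTSeq and the GRCm38 genome. Per the labels' protocols, libraries were made by CEL-seq2. The use of molecular barcodes and of strand in counting is not stated in these sources. External control (ERCC) rows were left out.

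The analysis used R 4.3.3 and edgeR 4.0.16 with filterByExpr by set, TMM scaling, robust dispersions and the quasi-likelihood F test. Each experiment had 1 fit with 1 mean per set, over 11588 and 12236 genes. Benjamini-Hochberg adjustment ran over all these genes, with calls under 0.05. The SE is the log2 fold change divided by the square root of F. For a group at 0 counts the bound takes 3 counts over the group and covers counting error only. Where only some sets of a group were at 0, the ratio of mean CPM was used for the medians. The fit was tested on simulated data. Limits on false calls and on recovery set beforehand were not met in every simulation. The simulation and the limits were then changed with these outcomes known, and the present checks bear on the sign and size of fold changes only. Alternatives were other size factors, no filter, DESeq2 1.42.0, a replicate block, mitochondrial counts left out, thinned libraries and each library left out. Treatments, days and subsets that the headers do not fix were never read from values or order.

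The members and lists were chosen with earlier results of these data known. Named members are those with the smallest p in each class and comparison, those that go against their class, and at least 1 per class. The values of 1 gene outside the members are not reported here.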

Additional observations from a re-analysis of the deposited data

Results flagged for a closer look

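The GFP difference of Zbp1 differed between the day 1 arms by 2.26 on the log2 scale (edgeR's quasi-likelihood test, adjusted p = 0.041), with 0.14 ± 0.38 in arm 4 and −2.12 ± 0.35 in arm 3. That of Ifng differed by −1.44 (adjusted p = 0.00146), with 2.00 ± 0.16 in arm 4 and 3.44 ± 0.17 in arm 3. Both differences were tested directly. As given above, the Zbp1 call was lost with any library left out except library B of arm 3 GFP-positive.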

How the results depend on the processing

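No called member reversed its direction in any setting run. Counts of members called moved by over 1.5 times as follows. DESeq2 gave 17 between arms in GFP-negative cells, 2 for the difference between arms in the GFP difference, 8 for arm 4 against day 0, 1 among day 2 subsets, 14 among later sets, 6 for later codes 4 and 5 against 2 and 3, 3 for codes 3 and 5 against 2 and 4, and 4 for codes 2 and 5 against 3 and 4. Over all genes, in the same order, DESeq2 called 1273, 321, 1532, 465, 856, 541, 238 and 263. The main fit called 775, 103, 1000, 148, 259, 204, 58 and 49. With no low-count filter the member counts were 1 for code 5, 1 among day 2 subsets and 15 among later sets. They were 7, 6 and 5 for the 3 pairings in the order above. All-gene counts were then 297, 570, 943, 537, 238 and 283, against 104 for code 5 in the main fit. All-gene calls rose in each of these cases, so the member counts are not shown to be particular to the members. Median-of-ratios size factors gave 4 among later sets, with 259 of all genes called there, as in the main fit. Libraries thinned to the shallowest, an alternative chosen after seeing the data, gave 1 for codes 4 and 5 against 2 and 3. All-gene calls there were 204, as in the main fit. A replicate block by library letter gave 2 for code 6, with 304 of all genes called, against 528 in the main fit. The causes were not tested. Calls over all genes fell in nearly all leave-outs of the first experiment and moved both ways in those of the second. Member counts with a library left out, here and above, are therefore not shown to be particular to the members. With single libraries left out, the lowest and highest counts were 10 and 13 for GFP over both arms, 4 and 7 in arm 3, 2 and 7 in arm 4, 4 and 8 between arms in GFP-negative and 4 and 6 in GFP-positive cells, 0 and 1 for the difference of these, 4 and 6 for arm 3 and 1 and 5 for arm 4 against day 0, 2 and 4 for code 2, 0 and 0 for code 5, 1 and 4 for code 6, 0 and 0 for both day 2 tests, 14 and 21 for later against day 2, 2 and 8 among later sets, and 1 and 3, 0 and 3, and 0 and 3 for the pairings.

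A replicate block by library letter gave 13 for GFP over both arms, 7 in arm 3, 7 in arm 4, 10 and 10 between arms, 1 for the difference, 5 and 4 for arms 3 and 4 against day 0, and 3, 0 and 2 for codes 2, 5 and 6. No sign of pairing by letter was seen: 28 pairs of A libraries had correlations of −0.0596 to 0.0329 in their deviations from the set means. These correlations cannot exclude that libraries of a letter share animals. For the second experiment no paired analysis was possible, because its columns carry no letters. Depth limits members under a few CPM most, and those at 0 counts over a whole group have a bound only.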
